A study of Mus musculus with 6 samples.

Results

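Wnt ligands and the secreted proteins that block them were followed across the cells of 2 adult mouse preparations, from the cortical surface and from the dura and skull. The set was fixed by gene symbol as 10 of the 31053 genes in the count matrices. It held 3 ligands (Wnt4, Wnt5a and Wnt6) and 7 secreted inhibitors, namely the secreted Frizzled-related genes Sfrp1, Sfrp2, Sfrp4 and Frzb, the Dickkopf genes Dkk2 and Dkk3, and Wif1. All of them lie on autosomes and are annotated as protein-coding in GENCODE on GRCm38 (mm10).

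Wnt proteins are lipid-modified signals that act over short distances through Frizzled receptors. In the canonical branch, Wnt binding to a Frizzled receptor with Lrp5 or Lrp6 stabilises beta-catenin, which enters the nucleus and raises target genes such as Axin2 and Lef1, whereas Wnt5a is the best known ligand of branches that do not need beta-catenin. Secreted Frizzled-related proteins and Wif1 bind Wnt proteins outside the cell, while Dickkopf proteins act at the Lrp co-receptors, and Dkk3 is a divergent member of that family. In tissues next to the meninges, Wnt signals are known from vessels of the brain, where they maintain the blood-brain barrier, and from the bone-forming layer of the skull.

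The data came from 6 libraries of the 10x Genomics system, which counts mRNA molecules by unique molecular identifiers (UMIs). Of these, 4 were cortical surface-associated (tissue labelled Brain) and 2 bone-associated (Dura/Skull), all from wild-type C57BL6 mice, adults of either sex in the study's methods, with several mice pooled per library. Living nucleated cells had been sorted as propidium iodide-negative and DRAQ5-positive, and the labels' dissociation text (papain, ventricular-subventricular zone) differs from the collagenase D and dispase II of the methods. The library was the replicate, so the p-values measure the spread between pooled libraries and not between mice.

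After filtering, 8680 cells remained, from 739 to 2452 per library with median depths from 5453 to 9556 UMIs. Hemoglobin genes took 84.6% and 71.9% of all UMIs in cortical surface libraries 3 and 4, against at most 0.52% elsewhere. Any pair of libraries shared 0 to 9 barcodes. Mesenchymal-like cells, the fibroblasts of the meninges, numbered 288 on the cortical surface (78, 146, 34 and 30 in libraries 1 to 4) and 283 in the bone preparation (34 and 249). All 8 mesenchymal markers were detected in each of the 6 sums, with a summed level of 5537 to 8946 CPM (UMIs of a gene per 1000000 UMIs of the class in that library) on the cortical surface and of 19697 and 24699 in bone. Markers of border macrophages summed to 120, 1307, 2985 and 77.2 CPM in the mesenchymal-like cells of cortical surface libraries 1 to 4 and to 5.23 and 5.95 in bone, and erythroid genes took 97143 and 155498 CPM in libraries 3 and 4. Their part in the results was not tested, but each count of members was also taken without these cells or libraries.

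In mesenchymal-like cells the 3 ligands were higher on the cortical surface, and Sfrp2, Sfrp4 and Dkk2 were higher in bone, whereas Sfrp1 and Frzb were higher on the cortical surface with the ligands. Of the 10 genes, 9 had a UMI in more than 10% of the class in one preparation or the other and could be tested, and 8 of these were called. Called means an adjusted p below 0.05 together with a log2 fold change of 1.3 or more in size. Of all 9570 genes tested in these cells, 13.2% were called, 5.66% higher on the cortical surface and 7.59% higher in bone. Among the members, 5 were higher on the cortical surface and 3 in bone. However, 6 of the 9 (Wnt4, Wnt6, Sfrp2, Sfrp4, Frzb and Dkk2) passed the filter through the preparation in which they were higher, so the count describes the set and lends it no support.

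Wnt4 (chromosome 4, 137277489 to 137299726), a ligand known from kidney and reproductive tract development, differed widely between the preparations. Its level was 397, 458, 381 and 270 CPM in the mesenchymal-like cells of cortical surface libraries 1 to 4, and 1.74 and 2.43 in the bone libraries. The groups did not overlap, and every cortical surface library stood above both bone libraries. The log2 fold change was 7.38 ± 0.42 (SE), with an adjusted p of 1.35e-07 (edgeR quasi-likelihood test, n = 4 and 2 libraries). At least 1 Wnt4 UMI was present in 77.1% of cortical surface mesenchymal-like cells (95% exact binomial interval 71.8 to 81.8%) and in 2.83% of those in bone (1.23 to 5.49%). T or NK-like cells, which should lack the gene, had one in 1.83% and 0.638%, and the intervals of the bone classes overlapped (0.132 to 1.85% in T or NK-like cells). Intervals here and elsewhere cover counting error only.

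Wnt5a (chromosome 14, 28504750 to 28527448) and Wnt6 (chromosome 1, 74771892 to 74785322) followed the same order with a smaller difference. Wnt5a measured 464, 294, 386 and 237 CPM in the 4 cortical surface libraries and 67.9 and 22.7 in bone, without overlap (log2 fold change 3.20 ± 0.42, adjusted p = 8.25e-05, edgeR). Wnt6, a ligand of epithelia and of the early dermis, measured 114, 150, 75.5 and 55.1 on the cortical surface and 10.5 and 11.1 in bone (3.34 ± 0.39, adjusted p = 2.96e-05, edgeR). Unlike Wnt4, Wnt5a was also found in bone above background, in 22.6% of cells (17.9 to 27.9%) against none of the 470 T or NK-like cells, which allows a share of cells with a UMI of up to 0.638%. The depths differed, with medians of 14745 and 6211.5 UMIs, and after thinning every cell to 1500 UMIs the share was 3.21% (1.48 to 6.01%) against 0 of 470, for which the upper bound of the exact interval was 0.782%. Summed over the 3 ligands, the level was 975, 901, 843 and 562 CPM on the cortical surface and 80.1 and 36.2 in bone. The 3 ligands made up most of the Wnt genes there, as the 19 Wnt genes together summed to 1012, 941, 872 and 595 on the cortical surface. In bone the 19 summed to 185 and 111, so other Wnt genes took the larger part.

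**Figure D1:**
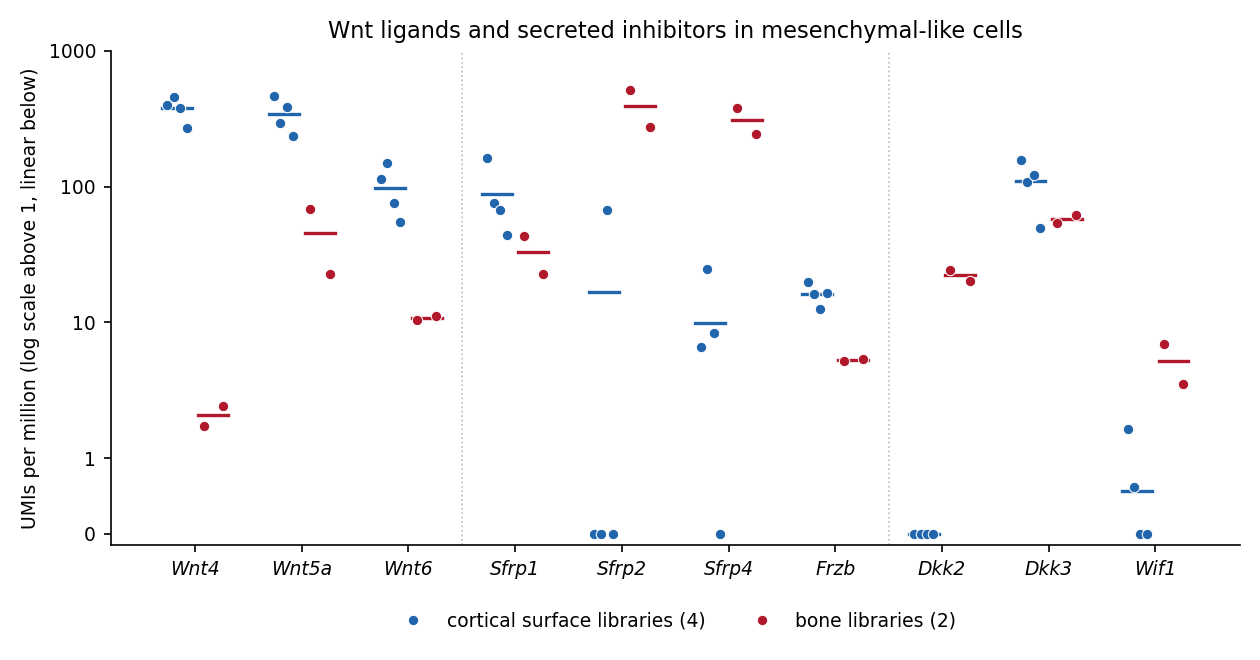
Level of each gene in mesenchymal-like cells, in CPM (vertical axis, logarithmic above 1 and linear below), with 1 point for each of the 4 cortical surface and 2 bone libraries and a bar at the mean of each preparation. Wnt4 lies between 270 and 458 on the cortical surface and at 1.74 and 2.43 in bone, while Sfrp2, Sfrp4, Dkk2 and Wif1 lie higher in bone.

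The secreted Frizzled-related genes went in both directions. Sfrp2 (chromosome 3, 83766321 to 83774316), a matrix-bound protein of fibroblasts, measured 512 and 276 CPM in the bone libraries, 67.1 in cortical surface library 3 and 0 in the other 3 cortical surface libraries. All 16 of its cortical surface UMIs came from a single cell of library 3, which fell in a sub-cluster of 18 cells led by the macrophage genes Ccl12, Ccl7 and Mgl2. The log2 fold change was -5.40 ± 1.00 (adjusted p = 0.00138, edgeR), while DESeq2 gave an adjusted p of 0.665 and no call. Without that sub-cluster edgeR gave an adjusted p of 2.21e-08. Leaving it out removed the only cortical surface cell of the class with Sfrp2, so that fit cannot settle the difference between the methods. Sfrp4 (chromosome 13, 19623104 to 19632994), mutations of which cause a bone disorder in humans, measured 376 and 246 CPM in bone. On the cortical surface it measured 6.59, 24.8, 8.38 and 0 (-4.30 ± 0.45, adjusted p = 1.05e-05, edgeR), again with no overlap.

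Sfrp1 and Frzb, the latter also known as Sfrp3, were higher on the cortical surface, by less. Sfrp1 (chromosome 8, 23411502 to 23449632) measured 163, 76.4, 67.1 and 44.1 CPM there and 43.6 and 22.7 in bone (log2 fold change 1.69 ± 0.41, adjusted p = 0.0101, edgeR). The lowest cortical surface library and the higher bone library nearly met, and the call was lost without cortical surface library 1 (1.28) and without bone library 2 (adjusted p = 0.241). Within the bone class, Sfrp1 measured 113 and 72.6 CPM in 92 cells led by Apod and Inmt. In 191 cells led by Comp and Cilp2 it measured 10.3 and 2.65. The part of this makeup in the fold change was not tested. Frzb (chromosome 2, 80411970 to 80447625), first known from cartilage, was low in both preparations, at 19.8, 16.1, 12.6 and 16.5 CPM against 5.23 and 5.41 (1.67 ± 0.44, adjusted p = 0.0155, edgeR). Its call rested on 44 and 23 UMIs, and it was lost without cortical surface library 2, without either bone library (adjusted p of 0.0549 to 0.208), with DESeq2 (0.140) and without the detection filter (0.0598).

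Of the Dickkopf genes, Dkk2 (chromosome 3, 132085292 to 132180304) was detected in the mesenchymal-like cells of bone and not in those of the cortical surface. It measured 24.4 and 20.3 CPM in the bone libraries and had no UMI in any of the 288 cortical surface cells, which allows a share of cells with a UMI of up to 1.04%. Against a floor of 3 counts over the cortical surface group, Dkk2 was at least 18.3-fold higher in bone (adjusted p = 0.000223, edgeR), and at least 7.14-fold without cortical surface library 2, the largest of that group. Dkk3 (chromosome 7, 112116017 to 112159057) was present in both, at 158, 108, 122 and 49.6 CPM on the cortical surface and 54.0 and 61.7 in bone. These groups overlapped, since cortical surface library 4 lay below both bone libraries, and at 1.04 ± 0.33 (adjusted p = 0.0429, edgeR) the change stayed under the fold threshold. Wif1 (chromosome 10, 121033960 to 121100650) was too rare to test, with 2 UMIs on the cortical surface and 17 in bone, a ratio of 5.25 in favour of bone with a 95% counting interval from 1.25 to 46.8. Without bone library 2 the ratio was 9.19, and without cortical surface library 2 its interval ran from 0.641 to 171. All 4 Wif1 UMIs of bone library 1 came from 1 cell, so the ratio of 9.19 rested on that cell. Counting intervals do not allow for UMIs that share a cell. Summed over the 7 inhibitors, the level was 349, 226, 277 and 110 CPM on the cortical surface and 1023 and 635 in bone, without overlap and in the order opposite to that of the ligands. Most of the bone sum came from Sfrp2 and Sfrp4, with 1314 and 1124 UMIs, against 259 for Dkk3, the next highest. The order of the sum is therefore not that of each inhibitor, as Sfrp1 and Frzb went with the ligands.

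Leaving out the sub-cluster led by macrophage genes, a sub-cluster led by Prg4 and Slc47a1, or both hemoglobin-rich libraries left the number of called members at 8 each time. Most tested members had passed the filter through the preparation in which they were higher, so the unchanged count lends the set no support. At equal depth the order was the same. When every cell was thinned to 1500 UMIs, Wnt4 was present in 45.5% of cortical surface and 0.357% of bone cells, Wnt5a in 39.3% and 3.21%, Sfrp2 in 0.364% and 19.3%, and Sfrp4 in 1.45% and 18.6%. These shares come from a single random draw, and the shares that thinning gives on average, computed exactly, were 43.3% and 0.387% for Wnt4, 39.9% and 3.98% for Wnt5a, 0.303% and 19.1% for Sfrp2, and 1.61% and 20.6% for Sfrp4. For Dkk3 the draw was less typical. Its shares were 52.8% and 48.1% before thinning, 16.1% and 8.81% on average after it, and 19.3% and 4.64% in the draw. The unthinned cells had median depths of 7756 UMIs on the cortical surface and 14745 in bone, and 13 and 3 cells were too shallow to be thinned.

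**Figure D2:**
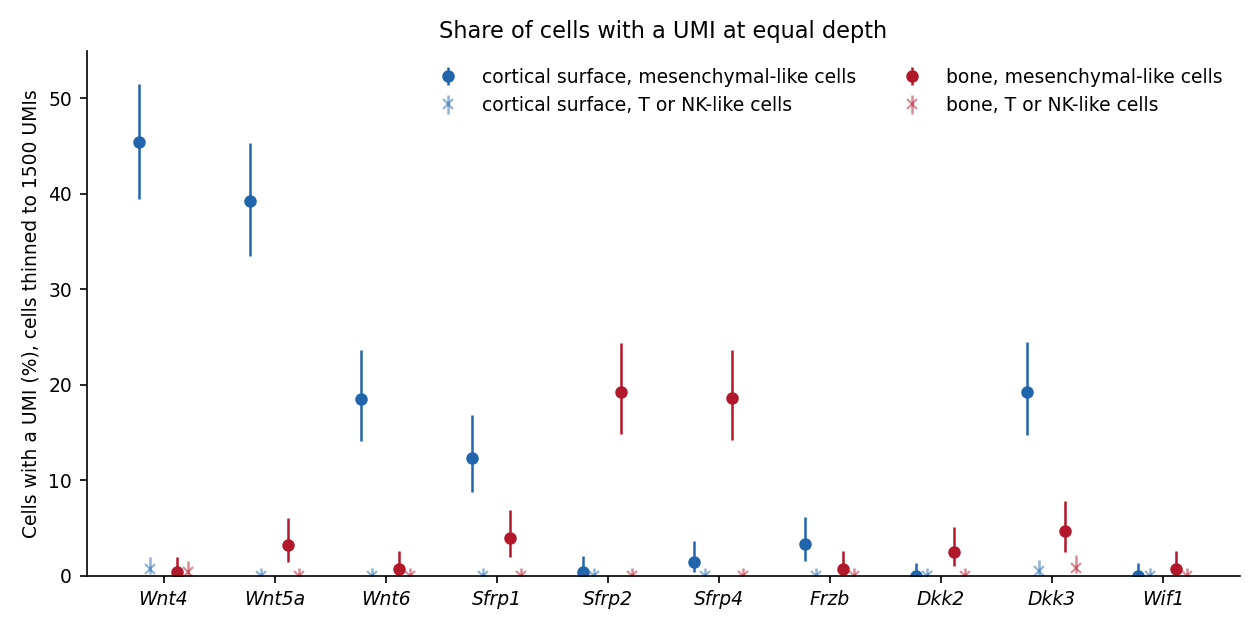
Share of cells with a UMI of each gene, in percent, after thinning every cell to 1500 UMIs, for mesenchymal-like cells (dots) and T or NK-like cells (crosses) of both preparations, with 95% exact binomial intervals as bars. Wnt4, Wnt5a and Wnt6 stand apart in the cortical surface cells and Sfrp2 and Sfrp4 in the bone cells, while T or NK-like cells stay below 1%. For Dkk3 the draw was untypical, as the average share over draws is 8.81% in mesenchymal-like and 2.14% in T or NK-like cells of bone.

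Promoter sequence was available from RefSeq for 6 of the 10 genes, as the 250 bases before the start of transcription on GRCm38.p6. Shown are those of Wnt6, higher on the cortical surface, and of Sfrp2 and Dkk2, higher in bone, to set members with opposite changes side by side. Capitals mark GGGCGG or its reverse complement CCGCCC, the GC box bound by Sp-family factors, on either strand. The motif CTTTGA, read by Tcf and Lef factors, was searched too, with its complement TCAAAG, and the 2 motifs do not overlap. Of 32851 RefSeq promoters of this length, 32.7% held the GC box and 13.8% held CTTTGA. A match is a description of these letters and not evidence of a bound site.
Wnt6 (chr1:74771642-74771891, plus strand): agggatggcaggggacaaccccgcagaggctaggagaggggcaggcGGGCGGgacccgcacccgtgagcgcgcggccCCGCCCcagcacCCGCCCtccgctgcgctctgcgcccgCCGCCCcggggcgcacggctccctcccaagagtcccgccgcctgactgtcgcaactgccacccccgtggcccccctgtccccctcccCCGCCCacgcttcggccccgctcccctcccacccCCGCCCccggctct
Sfrp2 (chr3:83766071-83766320, plus strand): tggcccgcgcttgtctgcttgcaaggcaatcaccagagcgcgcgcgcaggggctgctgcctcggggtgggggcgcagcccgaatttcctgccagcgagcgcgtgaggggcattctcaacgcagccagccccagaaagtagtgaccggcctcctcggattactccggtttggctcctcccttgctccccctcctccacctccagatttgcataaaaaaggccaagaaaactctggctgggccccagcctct
Dkk2 (chr3:132085042-132085291, plus strand): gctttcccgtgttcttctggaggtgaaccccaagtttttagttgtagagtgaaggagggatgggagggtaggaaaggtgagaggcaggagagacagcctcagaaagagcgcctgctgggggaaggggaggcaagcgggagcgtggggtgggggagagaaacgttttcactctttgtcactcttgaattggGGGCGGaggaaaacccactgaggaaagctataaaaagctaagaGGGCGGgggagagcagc

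The Wnt6 window held 6 GC boxes, 28 CpG pairs and 79.6% G and C, against a median of 52.4% over all promoters. Sfrp2 held no GC box, 16 CpG pairs and 63.6% G and C, and Dkk2 held 2 GC boxes, 7 CpG pairs and 55.6% G and C. Wnt4, the other ligand with a sequence, resembled Wnt6, with 8 GC boxes and 85.2% G and C. Frzb, also higher on the cortical surface, was instead close to Sfrp2, with 1 GC box, 16 CpG pairs and 64.4% G and C. CTTTGA was found in the window of Frzb alone among the 6. The windows follow the starts of transcription in RefSeq, and those of Wnt4, Frzb and Wif1 reach into the gene spans printed above.

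Single cells on the cortical surface usually carried several members at a time. The median was 3 of the 10 genes per mesenchymal-like cell on the cortical surface and 2 in bone. Wnt4 and Wnt5a were found together in 194 of the 288 cells, that is in 87.4% of the cells with Wnt4 and 85.1% of those with Wnt5a, while 79.2% of all these cells had Wnt5a and 77.1% had Wnt4. In bone, Sfrp2 and Sfrp4 were found together in 59 of 283 cells, which is 47.2% of the Sfrp2 cells and 43.1% of the Sfrp4 cells, where Sfrp2 was found in 44.2% and Sfrp4 in 48.4% of all bone mesenchymal-like cells. These shares describe the cells of 2 libraries and were not tested.

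The mesenchymal-like cells were divided within each preparation without the Wnt genes, which gave 6 sub-clusters on the cortical surface and 7 in bone. Wnt5a was found in all 6 cortical surface sub-clusters and Wnt4 in 5 of them. Wnt4 was highest, at 654 CPM, in 24 cells led by Cpxm2 and Mfap5, and Wnt5a was highest, at 436, in 108 cells led by Ppil3 and Cited4. Sfrp1 and Frzb went apart there, with Sfrp1 at 196 and Frzb at 13.7 in 65 cells led by Cyp26b1 and Gap43, and with Sfrp1 at 19.5 and Frzb at 39.0 in 62 cells led by Asnsd1 and Asap2. The sub-cluster led by Prg4 and Slc47a1, of 11 cells, differed in having neither Wnt4 nor Wnt6. Summed over its cells, it had Sfrp4 at 118 and Wnt5a at 33.8 CPM. Leaving it out took cortical surface library 4 from 30 to 23 mesenchymal-like cells and library 2 from 146 to 143. Library 4 had no Sfrp4 UMI in this class, so most cells of the sub-cluster did not carry the gene.

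In bone, Wnt6 and Sfrp1 were drawn together in 1 sub-cluster, of 77 cells led by Ccl11 and Vtn. It held Wnt6 at 41.1, Sfrp1 at 94.9, Dkk2 at 45.0 and Sfrp4 at 474 CPM. Both bone libraries contributed, with Sfrp1 at 159 in 10 cells of library 1 and at 85.4 in 67 cells of library 2. Dkk2 was less concentrated in bone. Of its 89 UMIs in the class, 46 lay in the cluster led by Apod and Inmt and 43 in that led by Comp and Cilp2. Sfrp2 was spread more widely, from 194 to 471 in 5 sub-clusters, and highest in 84 cells led by Gpha2, Kcnma1 and Dlx6. Sfrp4 reached 1812 in 8 cells led by Prg4, Angptl7 and Gdf5, all 8 of which had a UMI of it and none of which had Sfrp2. The remaining 8 cells, led by Coch and Tcf21, lacked both inhibitors and had Wnt5a at 180 CPM, the highest bone value of that ligand among the sub-clusters.

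**Figure D3:**
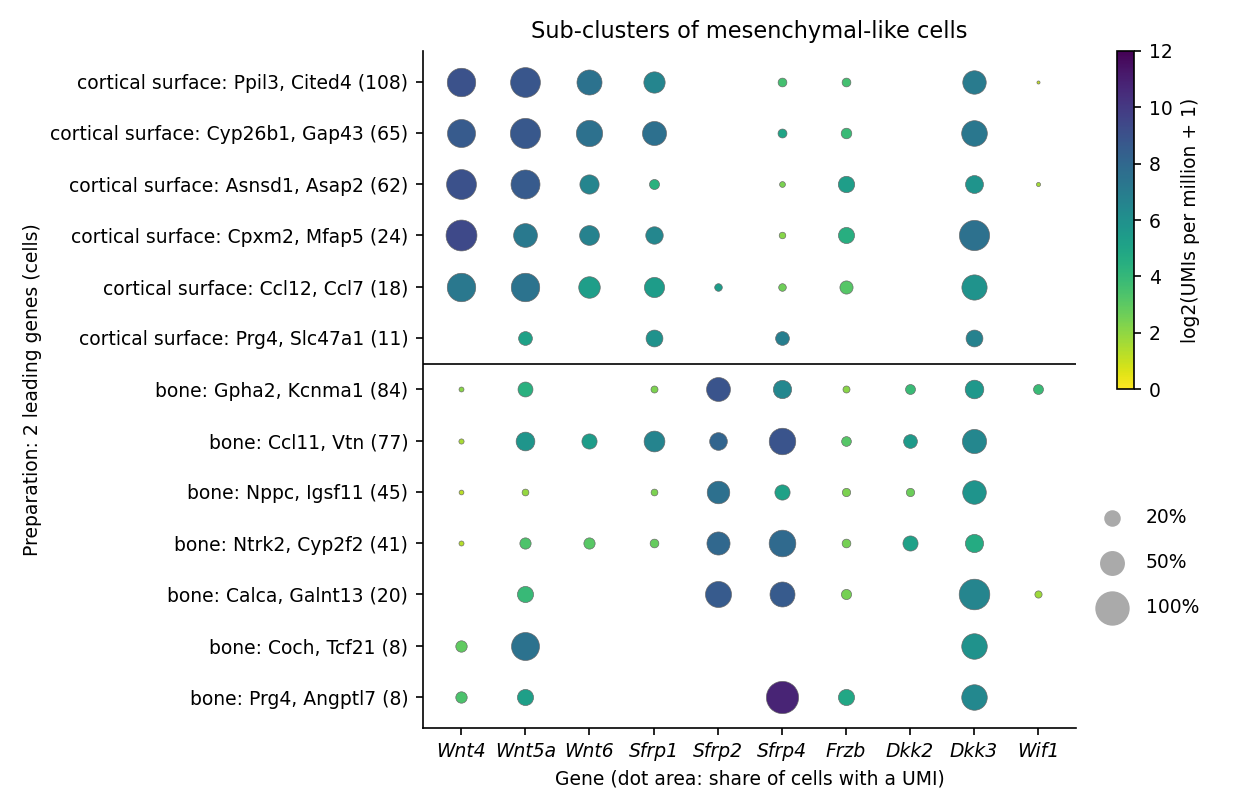
Sub-clusters of mesenchymal-like cells (rows, named by 2 leading genes with the number of cells) against the 10 genes, with dot area for the share of cells with a UMI and colour for the level as log2(CPM + 1). Wnt4 marks every cortical surface row but the one led by Prg4 and Slc47a1, and Sfrp2 marks 5 of the 7 bone rows.

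Outside the mesenchymal-like cells, the class with most of the remaining UMIs differed from gene to gene. On the cortical surface it was endothelial-like for Wnt5a (323 UMIs), VSMC-like for Dkk3 (56), border macrophage-like for Wnt4 (54), choroid plexus-like for Sfrp1 (28) and neuron-like for Sfrp2 (9). On the cortical surface, mesenchymal-like cells held 86.0% of the Wnt4, 88.9% of the Wnt6 and 68.7% of the Wnt5a UMIs of all cells, but none of the 167 Dkk2 UMIs. In bone they held 96.2% of Sfrp2, 91.9% of Sfrp4 and 10.8% of Wnt4. Classes are clusters of the same libraries, so levels between them are described and not tested.

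**Figure D4:**
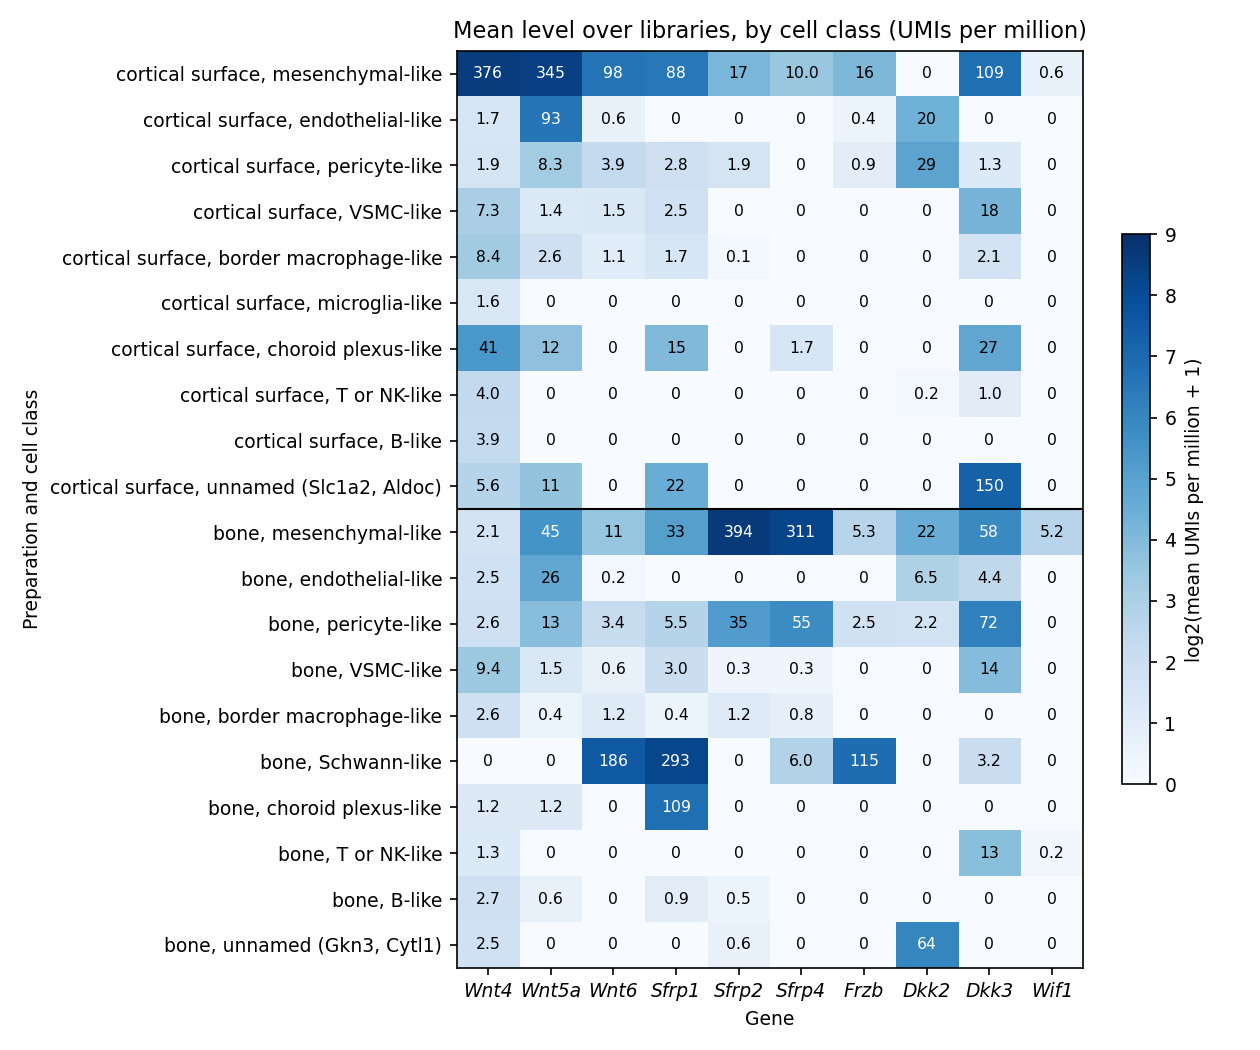
Mean level over libraries with at least 10 cells, in CPM, of the 10 genes (columns) in the main cell classes of both preparations (rows), with colour as log2(mean + 1). On the cortical surface Wnt5a is second highest in endothelial-like cells, Wnt6, Sfrp1 and Frzb are highest in Schwann-like cells of bone, and Dkk2 of the cortical surface lies mostly in pericyte-like and endothelial-like cells.

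Wnt5a was the only member tested in endothelial-like cells, where it was higher on the cortical surface. It measured 108, 92.5, 94.6 and 77.2 CPM in the cortical surface libraries and 39.0 and 13.3 in bone, without overlap (log2 fold change 1.95 ± 0.31, adjusted p = 0.000203, edgeR), where 6.6% of 7726 genes were called, 1.99% higher on the cortical surface and 4.61% higher in bone. Within the class it was found in particular clusters. On the cortical surface it measured 194, 191, 152 and 148 in 218 cells led by Slc38a5 and Vwf, 91.7, 40.0, 72.8 and 36.9 in 249 cells led by Car5a and Mfsd2a, and had a single UMI in 78 cells led by Cytl1 and Gkn3. Of the 85 bone UMIs, 81 fell in 123 cells led by Slc38a5, Slco1a4 and Slco1c1, the last pair being transporters of brain endothelium, and there Wnt5a measured 90.7 and 52.2. It had 4 UMIs in 108 bone cells led by Selp and Vwf and none in 215 cells led by Btnl9 and Gpihbp1. The class therefore differed in makeup between the preparations, and the part of that in the fold change was not tested.

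Dkk2 was found in clusters led by Gkn3 and in a pericyte-like cluster. Cells led by Gkn3 and Cytl1, with Gja5 and Sema3g in bone, had Dkk2 at 110, 189 and 103 CPM in cortical surface libraries 1, 2 and 4, those with at least 10 such cells, and at 54.8 and 73.3 in bone. The bone cluster, of 149 cells, carried no class name because a neuronal marker was among its leading genes, so it entered no test. The other cortical surface endothelial-like clusters had no Dkk2 UMI. In pericyte-like cells, 71 of the 80 cortical surface UMIs lay in 253 cells led by Atp13a5 and Abcc9, at 52.2, 64.9, 27.5 and 95.5 CPM. The bone pericyte-like cluster of 76 cells had 1 UMI. Over all pericyte-like cells the counts were 80 and 3, a ratio of 18.9 in favour of the cortical surface with a 95% counting interval from 6.22 to 93.4, opposite in direction to the mesenchymal-like cells. Without bone library 2 the ratio was 8.88. Dkk2 was under the detection filter in the class as a whole. With the filter left out, it passed the call rule in pericyte-like cells (adjusted p = 9.52e-08, edgeR). The p-values of fits without the filter, here and later, are not on the scale of the others. For Wnt5a in endothelial-like cells the adjusted p was 2.26e-10 without the filter and 0.000203 with it (edgeR). In endothelial-like cells the result rested on the naming of the bone cluster led by Gkn3. Without that cluster Dkk2 measured 25.5, 23.1, 13.1 and 17.4 CPM on the cortical surface and 9.95 and 3.13 in bone (log2 fold change 1.77 ± 0.42, adjusted p = 0.000491, edgeR). With it, the bone libraries measured 20.1 and 19.9, the groups overlapped, and the log2 fold change was 0.01 ± 0.31 (adjusted p = 0.994, edgeR), so Dkk2 was not called in endothelial cells once the bone cluster was counted.

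Dkk3 and Sfrp4 were both called higher in bone pericyte-like cells, where 10.6% of 7994 genes were called, 2.55% higher on the cortical surface and 8.04% higher in bone. Dkk3 measured 95.1 and 49.3 CPM in the bone libraries and 3.04, 2.20, 0 and 0 on the cortical surface (log2 fold change -5.49 ± 0.53, adjusted p = 5.73e-06, edgeR). Sfrp4 measured 64.6 and 46.0 in bone and had no UMI in any of the 489 cortical surface cells, so it was at least 43.4-fold higher in bone against the floor of 3 counts (adjusted p = 1.04e-05, edgeR) and at least 27.7-fold without cortical surface library 2. Nearly all of these bone UMIs, 112 of 113 for Dkk3 and 91 of 92 for Sfrp4, lay in 112 cells led by the chemokine genes Ccl19 and Ccl11. The matching cortical surface cluster, 236 cells led by Ccl19 and Colec11, had 2 Dkk3 UMIs and none of Sfrp4. Compared between these 2 clusters alone, both genes were called again (Dkk3 at -6.00, adjusted p = 2.41e-07, edgeR), and without them neither could be tested. When doublets were kept or each library was clustered on its own, the bone cluster lost its pericyte-like name and no member was called.

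In VSMC-like cells, vascular smooth muscle of the larger vessels, Dkk3 was the only member tested. It measured 25.0 and 11.0 CPM in cortical surface libraries 1 and 2 and 20.2 and 7.84 in bone. The groups overlapped, at a log2 fold change of 0.19 ± 0.42 (adjusted p = 0.886, edgeR), and it did not reach an unadjusted p of 0.05. Of 8370 genes 6.14% were called, 2.13% higher on the cortical surface and 4.01% higher in bone. In border macrophage-like cells no member reached the detection filter, where 6.69% of 7673 genes were called, 1.56% higher on the cortical surface and 5.12% higher in bone. Wnt4 had a UMI in 5.86% of these cells on the cortical surface (4.24 to 7.86%), with a median depth of 7936 UMIs, against 1.83% of T or NK-like cells at 6277.5 UMIs. After thinning the shares were 1.12% and 0.690%, with overlapping intervals. Wnt5a had a UMI in 19 of the 700 cells.

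Schwann-like cells, the glia of peripheral nerves, were named in bone alone and carried Wnt6, Sfrp1 and Frzb. Wnt6 measured 193 and 178 CPM in the 13 and 33 cells of the bone libraries, above the 4 cortical surface values in mesenchymal-like cells, and Sfrp1 measured 338 and 249. Frzb was unequal, at 205 and 25.5, and came from 3 cells. Sfrp1 was also found in choroid plexus-like cells of bone library 1, at 109 CPM over 13 cells. In those of cortical surface libraries 2, 3 and 4 it was lower, at 10.2, 27.4 and 7.91 CPM over 12, 36 and 98 cells. Among choroid plexus-like cells of the cortical surface, Wnt4 was found in library 2 only, with 24 UMIs in 7 of 12 cells. The same 12 cells had 15 Dkk3 and 7 Wnt5a UMIs, both also genes of mesenchymal-like cells. Those of libraries 3 and 4 had 1 Dkk3 UMI each and no Wnt5a. Whether RNA of other cells was counted in the 12 was not tested. Dkk3 measured 150 CPM in 10 cells of cortical surface library 2 from an unnamed cluster led by the astrocyte genes Slc1a2, Ntsr2 and Aldoc. It was also found in T-cell clusters led by Cd163l1 and Trdv4, genes of gamma-delta T cells, in 19.3% of 161 cells in bone and 9.30% of 43 on the cortical surface, so T or NK-like cells give no background for Dkk3.

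Of 8 target genes of beta-catenin tested in mesenchymal-like cells, 7 were called higher on the cortical surface and none in bone. However, Apcdd1, Lef1, Sp5 and Tcf7 passed the detection filter through the cortical surface alone (0.353 to 3.89% of bone cells had a UMI), so their direction was set by the filter and the count lends no support. Of the 4 targets that passed in both preparations, Axin2, Nkd1 and Tnfrsf19 were called and Nkd2 was not. Axin2, the feedback inhibitor of the pathway, measured 140, 108, 176 and 55.1 CPM on the cortical surface and 10.5 and 10.3 in bone (3.62 ± 0.42, adjusted p = 2.85e-05, edgeR). Sp5, a transcription factor, measured 59.3, 57.7, 37.7 and 33.1 against 0 and 1.62 (5.16 ± 0.51), and Lef1 measured 65.9, 25.5, 46.1 and 22.1 against 3.48 and 1.89 (4.19 ± 0.57). Apcdd1, a membrane inhibitor of Wnt signals, had 35 UMIs on the cortical surface and 1 in bone, a ratio of 56.7 with a counting interval from 9.53 to 2302. Nkd2 did not pass, at 0.91 ± 0.40. In cells thinned to 1500 UMIs, 3 of the targets were still called.

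In the vessel classes some targets were called, again partly among genes that passed the filter through the cortical surface alone. In pericyte-like cells 4 of 6 tested were called higher on the cortical surface, namely Axin2 and Tnfrsf19, which passed in both preparations, and Tcf7 and Lef1, which did not. Lef1 had 103 UMIs against 2 in bone, a ratio of 36.4 with a counting interval from 9.83 to 305. The bone class included the cluster led by Ccl19 and Ccl11, whose pericyte-like name depended on the processing. Its part in these calls is not given here. In VSMC-like cells 3 of 4 were called, with Tcf7 at 2.18 ± 0.46, and all 3 had passed through the cortical surface alone, while Nkd1, which passed in both, was not called. In endothelial-like cells 2 of 6 were called, Tcf7, which passed through the cortical surface alone, and Lef1, which passed in both (1.49 ± 0.25). The makeup of that class differed between the preparations, as given for Wnt5a, and its part in these calls was not tested. The endothelial count ranged from 0 without bone library 2 to 5 without bone library 1, and was 4 with the bone cluster led by Gkn3. No target passed the filter through bone alone in any of these classes. That is again an outcome of the filter, on a list chosen with earlier results of these data known, and lends no support.

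**Figure D5:**
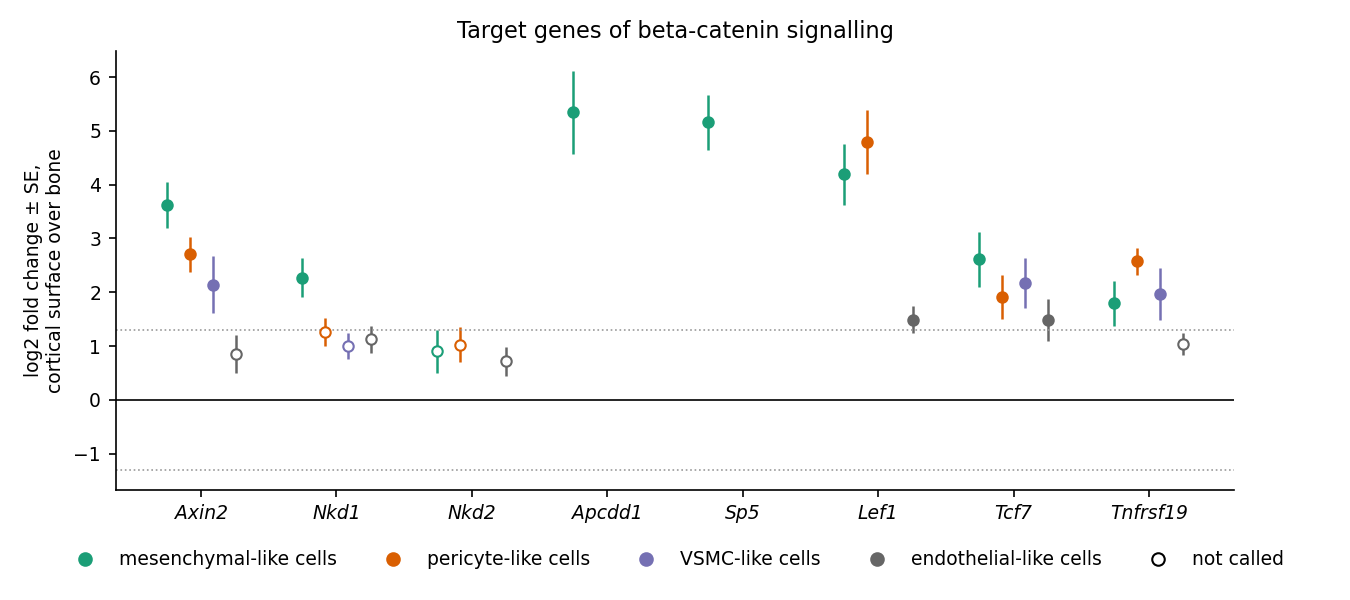
Log2 fold change of cortical surface over bone, with SE as bars, for 8 target genes of beta-catenin in 4 cell classes, filled where called and open where not, with dotted lines at the fold threshold of 1.3. All points lie above 0, and in mesenchymal-like cells 7 of 8 are filled, of which 4 had passed the detection filter through the cortical surface alone.

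Among the other pathway lists, calls fell among ligands, inhibitors, R-spondins and their receptors, Wnt receptors and planar polarity genes. Notum, a secreted enzyme that inactivates Wnt proteins by removing their lipid, was the inhibitor outside the set that could be tested in mesenchymal-like cells. It measured 232, 226, 159 and 99.2 CPM on the cortical surface and 0 and 2.97 in bone (6.26 ± 0.52, adjusted p = 1.93e-06, edgeR). Of 16 other Wnt ligands 2 were tested, and Wnt9a was called higher in bone (-2.26 ± 0.36). Of the R-spondins, which enhance Wnt signals, and their receptors, 5 of 9 were tested. Rspo3 was higher in bone (397 and 307 CPM against 6.59, 49.0, 67.1 and 182), as was Rspo1, whereas Rnf43, a ubiquitin ligase that removes Frizzled receptors, had 67 UMIs on the cortical surface and 2 in bone.

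Of 18 receptors and co-receptors tested, 3 were higher on the cortical surface and 5 in bone. Fzd10, Fzd6 and Ptk7 made up the first group, with Fzd10 at 133 and 2 UMIs and Fzd6 at 2.80 ± 0.45. Fzd4 (-2.34 ± 0.58), Lrp5 (-2.04 ± 0.32) and Fzd5 (-1.84 ± 0.56) led the second. Daam1 was higher on the cortical surface and Daam2 in bone among 6 planar polarity genes. None of the 9 signal transduction genes was called by edgeR, with 1 at an unadjusted p under 0.05 (Dvl3, 1.26 ± 0.38). Of the 2 genes of Wnt secretion, Wls, the carrier of Wnt proteins to the cell surface, measured 547, 305, 465 and 298 against 230 and 147 CPM and missed the fold threshold at 1.24 ± 0.31. Of 3 arachnoid barrier genes tested, Cldn11, a tight junction gene, was called and was higher in bone (-2.91 ± 0.34).

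In the other classes 1 gene per list and direction was taken. Pericyte-like cells had Wnt11 and Rspo3 in bone, with 53 and 39 UMIs, and none on the cortical surface, Fzd8 was higher in bone (-2.25 ± 0.36) and Ptk7 higher on the cortical surface (2.30 ± 0.46). VSMC-like cells had Wnt5b, a close relative of Wnt5a, higher on the cortical surface (3.03 ± 0.29) together with Vangl2 (1.93 ± 0.60), and Fzd5 higher in bone (-1.52 ± 0.36). Endothelial-like cells had Notum (2.49 ± 0.43) and Reck (1.87 ± 0.34), a co-receptor of brain endothelium, higher on the cortical surface, and Prickle2 higher in bone (-2.26 ± 0.46). Of the arachnoid barrier list, Cldn11 was higher in bone pericyte-like cells (-7.14 ± 0.74) and Dpp4 higher in cortical surface endothelial-like cells (2.07 ± 0.33). Because the endothelial-like class differed in makeup between the preparations, its values here carry the same limit as that of Wnt5a. Of the 188 bone pericyte-like cells, 112 lay in the cluster led by Ccl19 and Ccl11, against 236 of 489 in the matching cortical surface cluster. The bone cluster lost its pericyte-like name when doublets were kept or libraries were clustered singly. Its part in the pericyte-like values is not given here.

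The genes whose levels ran closest to each member were sought over 70 sums of a library and a named class. Over these sums, which share libraries and depth, Pearson's r of log2(CPM + 10) was 0.91 for Wnt4 with both Clec3b and Slc22a6, and 0.95 for Wnt5a with Edn3. It was 0.95 for Wnt6 with Col9a2, 0.91 for Sfrp2 with Pax1, 0.95 for Sfrp4 with both Il33 and Actn3, and 0.92 for Frzb with Megf10. Dkk2 had the loosest partners, Spaar at 0.85 and Foxf2 at 0.81. Sfrp1 was closest to Zfp536 and Efs (both 0.90) and Dkk3 to Fbln7 and Aebp1 (both 0.87), and Wif1 had too few UMIs. The sums are not independent points, so no p is given.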

How the data were processed

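Reads were mapped to mm10 by the authors using Cell Ranger, and the deposited values are UMI counts, not normalized (the submitters' processing notes give Cell Ranger 3, the file headers 6.1.2). Barcodes were kept from 500 genes upward and up to 10% mitochondrial UMIs, and doublets were removed per library at 0.8% per 1000 cells. Free RNA was not corrected for. Cells of each preparation were clustered (Leiden, resolution 1.5, 30 components) without Wnt pathway, mitochondrial or hemoglobin genes. A class name needed 3 leading markers, and the rule for mixed myeloid clusters was set after seeing the data. Levels are CPM per library and class with at least 10 cells. Summed counts were tested with edgeR (quasi-likelihood, TMM, Benjamini-Hochberg over all genes tested). The library totals were 8408685 to 56169736 UMIs. The scripts were tested on simulated data.

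The members and lists were chosen with earlier results of these data known. All 10 members were named, with up to 3 called genes per pathway list and direction in mesenchymal-like cells, 1 elsewhere and 2 most like each member. Alternatives were DESeq2, other scalings, gene and cell filters, no doublet removal, clustering per library, thinning, a replicate block and each library left out. Fits without the hemoglobin-rich libraries, or without, within or with named clusters, a second thinning draw and the count of target genes under each setting were added after seeing the data. Versions were Python 3.11.15, scikit-learn 1.9.0, leidenalg 0.10.2, R 4.3.3, edgeR 4.0.16 and DESeq2 1.42.0. Protein sequences and 4 of the promoters were not analysed here.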

Additional observations from a re-analysis of the deposited data

Results flagged for a closer look

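Among 16 groups of 4 cortical surface libraries examined for a library far from the rest, 1 was flagged, Sfrp2 in mesenchymal-like cells. Chance gives about 1 in 20, so 1 flag in 16 groups could arise by chance. Library 3 was at 67.1 CPM and the other 3 at 0, so the gap to the nearest library was 1.0 of the whole range. With 3 libraries at 0 that holds for any value of the remaining library, so the rate of 1 in 20 does not apply here. All 16 UMIs came from 1 cell.

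Dkk2 went in opposite directions in different classes of the same libraries. The mean over cortical surface libraries minus that over bone libraries was -22.3 CPM in mesenchymal-like cells, 13.3 in endothelial-like cells and 26.6 in pericyte-like cells, with no overlap between preparations in any of the 3. The endothelial-like direction rested on leaving out the unnamed bone cluster led by Gkn3. With that cluster counted, the bone libraries measured 20.1 and 19.9 CPM, within the cortical surface range of 13.1 to 25.5, and the log2 fold change was 0.01 (adjusted p = 0.994, edgeR). The difference between the classes itself was not tested.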

How the results depend on the processing

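Wnt4, Wnt5a, Wnt6, Sfrp4 and Dkk2 kept their direction and call in mesenchymal-like cells under all alternatives that gave a value (20 to 23 each), as did Wnt5a in endothelial-like cells (21). With each library left out in turn, Sfrp1 and Frzb were the members that lost a call in mesenchymal-like cells. A left-out bone library leaves a lone library assumed to vary like the rest. Most tested members had passed the filter through the preparation in which they were higher, so the calls kept lend the set no support. Sfrp2 lost its call in DESeq2 (-4.36), and Frzb and Sfrp1 lost theirs under 5 and 2 alternatives. Dkk3 passed in mesenchymal-like cells when thinned (2.13, and 1.39 in a second draw), and in VSMC-like cells it reversed without cortical surface library 1 (-0.38) and without bone library 2 (-0.30), with a highest value of 0.96 without bone library 1. The causes were not tested, except that thinning leaves fewer UMIs.

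Thinning to 1500 UMIs gave 558 called genes in mesenchymal-like cells (main 1268) with 3 targets, and 559 with 3 targets in a second draw, 253 in endothelial-like (510), 290 in pericyte-like (847) with 0 members and 2 targets, 148 in VSMC-like (514) with 0 targets, and 141 in border macrophage-like cells (513). Without the detection filter, endothelial-like cells had 3 members and 903 genes called, pericyte-like cells 4 members and border macrophage-like cells 897 genes. The 4 were Dkk2, Dkk3, Sfrp2 and Sfrp4. In bone library 1, 35 of the 37 Sfrp2 UMIs in the cluster led by Ccl19 and Ccl11 came from 1 cell. With filterByExpr, 2 members were called in endothelial-like cells. The share of all genes called in these fits is not given here, so the counts of members lend no support. When libraries were clustered singly, endothelial-like cells had 4 targets, as they did with the bone Gkn3 cluster added, and pericyte-like cells 0 members and 309 genes. With doublets kept, pericyte-like cells had 0 members and 482 genes, and without the Ccl19 clusters 1 member (Dkk2) and 419 genes. DESeq2 called 1 target in VSMC-like cells. With each library left out in turn, called genes ranged from 811 (without bone library 2) to 1312 in mesenchymal-like and from 287 (without bone library 2) to 533 in border macrophage-like cells, and called targets from 0 to 5 in endothelial-like and from 1 (without cortical surface library 1) to 3 in VSMC-like cells. Levels of members moved by less than 1 SD in 56 of 58 cases with at least 1000 genes per cell, in 51 without doublet removal, in 48 with libraries clustered alone and in 58 without hemoglobin genes.

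The labels give the libraries a number and say nothing of a shared day or batch, and the preparations share only 2 numbers, too few to take them as pairs. Deviations of same-numbered libraries correlated at 0.0585 and 0.172 in mesenchymal-like cells and at 0.0243 to 0.351 over the 5 classes, and with the number as a replicate block 8 members and 1415 genes were called there, with no member call changed in any class. Rare members such as Wif1 and Frzb are limited by depth.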
